A study of Mus musculus with 8 samples.

Results

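Ribosomal protein genes were taken as all genes whose symbol begins with Rpl or Rps followed by a digit, or with Rplp, without the S6 kinases (Rps6k), the Rps4y genes, pseudogenes and the mitochondrial ribosomal proteins. With probe sets that name 1 gene only, the rule found 33 genes of the 8251 genes named in this way on the array, 17 of the large and 16 of the small ribosomal subunit. They were read by 46 of the 12422 probe sets tested. Of the 33 genes, 24 had 1 probe set and 9 had several, and 1 probe set per gene was used. A further 39 probe sets name a ribosomal protein gene together with other genes and were kept apart, and 2 probe sets of the pseudogene Rps4l were left out. Rpl7l1 meets the rule by its symbol but is not counted among the core ribosomal proteins, and Rpl39l and Rps27l are paralogs of the widely expressed Rpl39 and Rps27. Rplp1, Rplp2, Rpl5, Rpl11, Rps6, Rps27a and Rack1 had no probe set of their own among those used and were not analysed here.

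The arrays, 8 in all, measured total RNA of mouse liver and fell into 4 groups of 2. Every liver came from a sibling that carried Ttr::Fv2E-PERK, line #58 with low expression, in a mixed FvB/n and Swiss Webster background. Ttr encodes transthyretin, a plasma protein made by hepatocytes. Fv2E-PERK is a fusion of the eIF2α kinase PERK with a domain that AP20187 dimerizes, so that the drug switches on the integrated stress response. The groups were untreated Atf4+/+, untreated Atf4-/-, AP20187-treated Atf4+/+ and AP20187-treated Atf4-/-. The design asks which part of the response needs Atf4, the transcription factor that this response induces. Neither the dose nor the time after the drug nor the age of the mice is stated in these sources. Whether both arrays of a group stand for different mice is also not stated, and p-values cover the spread between these samples, which may be technical.

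Cytoplasmic ribosomes hold a set of proteins in equal numbers, and the genes of these proteins are among the most highly expressed in any tissue, liver included. Most of their mRNAs begin with a C and a run of pyrimidines, the terminal oligopyrimidine tract, through which their translation follows the kinase mTOR and is repressed under stress. Phosphorylation of eIF2α lowers translation initiation as a whole, while it raises translation of Atf4.

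The letters at the annotated starts show this feature and how it varies between the members described here. RefSeq promoter entries (GRCm38.p6) matched 27 of the 33 genes, with 36 starts. Each line gives 12 bases before to 18 bases from the start on the gene strand. Capitals mark the longest run of a C followed by at least 4 pyrimidines within 15 bases of the start (letters past that bound are in lower case). Other, shorter runs of this kind, as in Rps18, Rps27 and Rpl22, are left in lower case. The first 4 genes are those with the smallest p for the averaged AP20187 effect, and the last 6 are among those with steady ratios.
Rpl13a, chr7:45128728-45128757, minus strand: accctgcgacaagaCCTCCTCCTTTCCcag
Rpl10a, chr17:28328459-28328488, plus strand: gcgCCCCCCCagcggccgcaaactgcagcg
Rpl22, chr4:152324424-152324453, plus strand: tgCTTCTggaatgttccagctcccactgac
Rpl38, chr11:114668568-114668597, plus strand: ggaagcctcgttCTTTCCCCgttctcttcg
Rpl7a, chr2:26910795-26910824, plus strand: CCCTCTTCTTTCTTTCTCCagcagccgagc
Rps18, chr17:33955648-33955677, minus strand: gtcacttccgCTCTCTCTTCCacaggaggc
Rps27, chr3:90213631-90213660, minus strand: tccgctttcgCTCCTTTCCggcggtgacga
Rps10, chr17:27635227-27635256, minus strand: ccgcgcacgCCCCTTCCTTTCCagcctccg
Rps4x, chrX:102189374-102189403, minus strand: aggctgggcggagcaacccaggctccagcg
Rps3a1, chr3:86142651-86142680, minus strand: aagccggaagggcgaaagagcaagggtcac

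Rpl10a and Rpl22 each have a second annotated start, at which no run was found. A run was found at 18 of the 36 starts (50%), against 36.4% of the 32851 starts in the table. A run of at least 8 letters stood at 11 of the 36 (30.6%), against 9.26%. Rpl7a had the longest of those shown, 19 letters, and Rpl38 had its run exactly at the start. Rps4x and Rps3a1 had none at the start annotated for them, although both encode core proteins of the small subunit. The genes Rps28, Rpl37a, Rplp0, Rpl7l1 and Rps3, which also had steady ratios and are not shown, had none either. In the 300 bases of each entry, the letters CTTTC on the gene strand stood in 24 of 36 (66.7%, against 34.8% of all) and CTTTT in 12 of 36 (33.3%, against 32.0%). On either strand, CCGGAAG, the core of ETS factor motifs, stood in 11 of 36 (30.6%, against 8.86%). The letters AAGATGG, the core of the motif of YY1, stood in 9 of 36 (25%, against 6.34%). TGATGNAA, the letters of the amino acid response element to which ATF4 binds with its partners, and TGACGTCA, the palindrome of CREB and ATF factors, were each in 0 of 36 entries, against 3.97% and 1.79% of all. Overlaps between these letters were not removed, and a match is a description of the letters only.

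The deposited value of a probe set is a linear ratio, in 85.8% of the table to its own median over the 8 arrays, so that levels cannot be compared between genes and the tissue cannot be checked by the presence of its markers. Atf4 had ratios of 2.36 and 0.3 in the arrays labelled untreated Atf4+/+, 0.29 and 1.67 in those labelled untreated Atf4-/-, 4.17 and 5.75 in treated Atf4+/+ and 0.25 and 0.33 in treated Atf4-/- livers. Replicate 2 of either untreated group therefore stood on the side opposite to its label, and for untreated Atf4-/- replicate 1 the description gives Atf4+/+ where the source name gives Atf4-/-. The treated groups stood apart as labelled, and untreated groups are called by their labels below. All 6 stress targets taken as a check of the treatment (Atf3, Ddit3, Trib3, Nupr1, Psat1 and Asns) had a log2 change above 0 in either genotype. The median change was 4.66 in Atf4+/+ and 1.92 in Atf4-/-. Treated arrays lay above untreated ones for all 6 in Atf4+/+ (100%, against 16.7% of all probe sets). In Atf4-/- they did for 4 (66.7%, against 20.1%), while Nupr1 and Asns overlapped and the lowest change was 0.057. The mean log2 values of hepatocyte markers (9 genes) ranged from 0.11 to 0.28 in untreated and from -0.15 to 0.26 in treated arrays, and those of erythroid markers (6 genes), from 0.0029 to 0.46 and from -0.32 to 0.26. Those of macrophage markers (8 genes) ranged from -0.23 to 0.54 and from 0.095 to 0.29, and untreated and treated arrays overlapped in these 3 lists. The part of cell composition in the values below was not tested, and in RNA of whole tissue fewer cells of a type and less RNA per cell cannot be told apart. Control probe sets at the 5′ and the 3′ end, a sign of RNA integrity, had a log2 ratio (5′ over 3′) between -0.061 and 0.13 for Gapdh and between -0.64 and 0.14 for Actb, lowest in treated Atf4+/+ replicate 2.

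As a set, the ribosomal protein genes had shares of small and of called changes near those over all probe sets. In the AP20187 effect averaged over genotypes, 27 of 33 (81.8%) had a change of less than 0.5 on the log2 scale in either direction, as did 79.2% of all probe sets. No member passed the test (limma adjusted p under 0.05) in this or in any other comparison, and 5 of the 12422 probe sets did here (0.0403%). With 2 arrays a group few moderate changes could pass this test, so that it does not show an absence of change. At an unadjusted p under 0.05, 3 members were higher (9.09%, against 6.16% of all probe sets) and 1 was lower (3.03%, against 5.15%), together 12.1% against 11.3%. These were Rpl13a, Rpl22 and Rpl10a, which were higher, and Rpl38, which was lower, all of the large subunit. The lower count was 2 without either treated Atf4-/- array and 0 with the probe set of smallest SD. The 4 treated arrays lay above the 4 untreated ones for 3 members (9.09%, against 4.19% of all probe sets), again Rpl13a, Rpl10a and Rpl22, and below them for 0 members (against 3.78%). This depends on the probe set: over all 46 ribosomal protein probe sets, 4 (8.7%) were separated upward and 1 (2.17%), a probe set of Rps4x that was not used, downward. The median change of the members was 0.063, beside -0.043 over all probe sets, and 21 of 33 were above 0, against 5586 of all 12422 probe sets. Without untreated Atf4-/- replicate 2 the members' median was -0.035, so that its sign rests on that array.

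**Figure D1:**
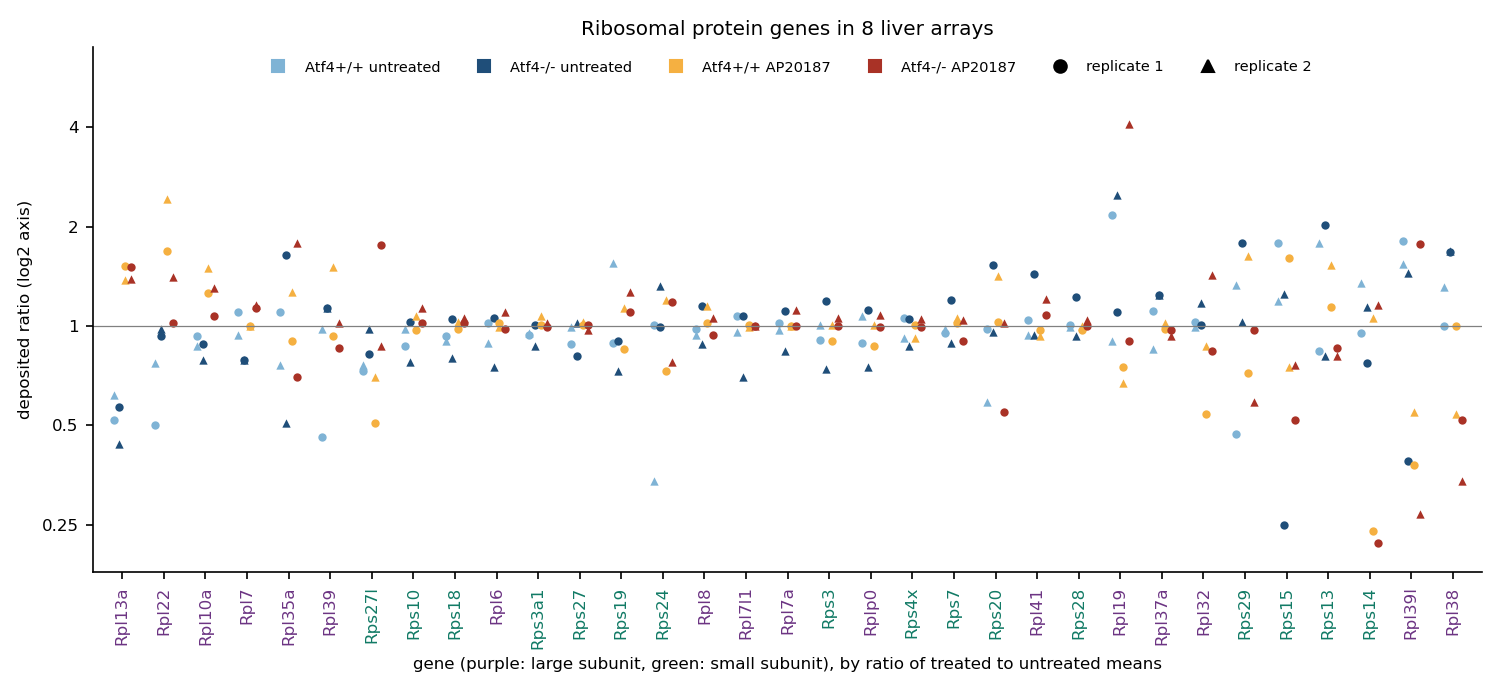
Deposited ratio of each of the 33 ribosomal protein genes (log2 axis) in the 8 arrays, with colour for the group and shape for the replicate, ordered by the ratio of treated to untreated means. Rpl13a stands at the left with its 4 untreated arrays at 0.44 to 0.62 and its 4 treated arrays at 1.38 to 1.52, most genes in the middle lie close to 1, and Rpl38 stands at the right.

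Rpl13a, a protein of the large subunit that is also released from ribosomes as part of an inhibitor of translation in macrophages and is often used as a reference gene in qPCR, had the widest separation. Its ratios were 0.52 and 0.62 in untreated Atf4+/+, 0.57 and 0.44 in untreated Atf4-/-, 1.52 and 1.38 in treated Atf4+/+ and 1.51 and 1.39 in treated Atf4-/- livers. The groups did not overlap by treatment, and the genotypes lay together in either state. The means were 0.537 ± 0.0768 in untreated and 1.45 ± 0.0753 in treated livers (SD, n = 4 arrays each), a ratio of 2.7. The log2 change was 1.29 ± 0.16 (SE, 4 against 4 arrays), with an unadjusted p of 0.000125 and a limma adjusted p of 0.0817, which does not pass 0.05. At an adjusted p under 0.1 it was the only member called, beside 21 probe sets in all (0.169%). It was 1.21 ± 0.22 in Atf4+/+ and 1.36 ± 0.22 in Atf4-/- livers (SE, 2 against 2 arrays, limma adjusted p = 0.243 and 0.298). Over 22 alternative settings the averaged change stayed between 0.91 and 1.41, with limma adjusted p between 0.0544 and 0.413. Rpl13a has 1 probe set here, so that no other probe set of the gene could be set beside it.

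Rpl10a, a large subunit protein whose tagged form is used to purify translating ribosomes, was higher with the drug in either probe set. In the one used, ratios were 0.93 and 0.87 in untreated Atf4+/+, 0.88 and 0.79 in untreated Atf4-/-, 1.26 and 1.5 in treated Atf4+/+ and 1.07 and 1.3 in treated Atf4-/- livers. In the other, which has an _f_at and not a plain name, they were 0.91 and 0.78, 0.69 and 0.67, 1.38 and 1.59, and 1.33 and 1.09 in the same order. Treated and untreated arrays did not overlap in either probe set, and treated Atf4+/+ replicate 2 was the highest in both. The averaged log2 change was 0.51 ± 0.15 (SE, limma adjusted p = 0.343) in the probe set used and 0.74 ± 0.15 (limma adjusted p = 0.221) in the other.

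Rpl22, a large subunit protein needed for the development of αβ T cells, had its highest ratios in treated Atf4+/+ livers. Its ratios were 0.5 and 0.77 in untreated Atf4+/+, 0.93 and 0.98 in untreated Atf4-/-, 1.69 and 2.43 in treated Atf4+/+ and 1.02 and 1.41 in treated Atf4-/- livers. By treatment the arrays did not overlap, but the lowest treated array (1.02) and the highest untreated one (0.98), both labelled Atf4-/-, were nearly equal. The log2 change was 1.56 ± 0.30 in Atf4+/+ (SE, 2 against 2 arrays, limma adjusted p = 0.262) and 0.93 ± 0.21 averaged over genotypes (limma adjusted p = 0.258). The difference between the genotypes' effects was -1.26 ± 0.43 (SE, unadjusted p = 0.0247, limma adjusted p = 0.901). The other probe set of Rpl22 read 0.68 and 1.01, 0.72 and 0.99, 1.32 and 1.24, and 1.14 and 0.89, with overlap by treatment and an averaged change of 0.4 ± 0.2 (SE, limma adjusted p = 0.51). In that probe set the difference between the genotypes' effects was -0.34 ± 0.39 (SE, unadjusted p = 0.421, limma adjusted p = 0.945).

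Rpl38, a large subunit protein whose loss in the Tail-short mouse alters translation of Hox mRNAs, had the lowest mean ratio of the 4 treated arrays, although single treated arrays of Rps14 and Rpl39l were lower. Ratios were 1.0 and 1.31 in untreated Atf4+/+, 1.67 and 1.69 in untreated Atf4-/-, 1.0 and 0.54 in treated Atf4+/+ and 0.52 and 0.34 in treated Atf4-/- livers. The Atf4-/- arrays were clearly apart by treatment and the Atf4+/+ arrays shared the value 1.0. The log2 change was -1.77 ± 0.34 in Atf4-/- (SE, 2 against 2 arrays, limma adjusted p = 0.333) and -1.17 ± 0.24 averaged over genotypes (limma adjusted p = 0.221). The probe set used has an _i_at name, which Affymetrix gives to probe sets of fewer specific probes, and the second has an _r_at name, so that neither is plain. The second probe set of Rpl38 read 1.03 and 0.91, 1.26 and 1.26, 0.77 and 0.9, and 0.98 and 1.23, with overlap between treated and untreated arrays and an averaged change of -0.19 ± 0.15 (SE, limma adjusted p = 0.67). The lower ratios of Rpl38 after treatment therefore stood in 1 of its 2 probe sets.

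**Figure D2:**
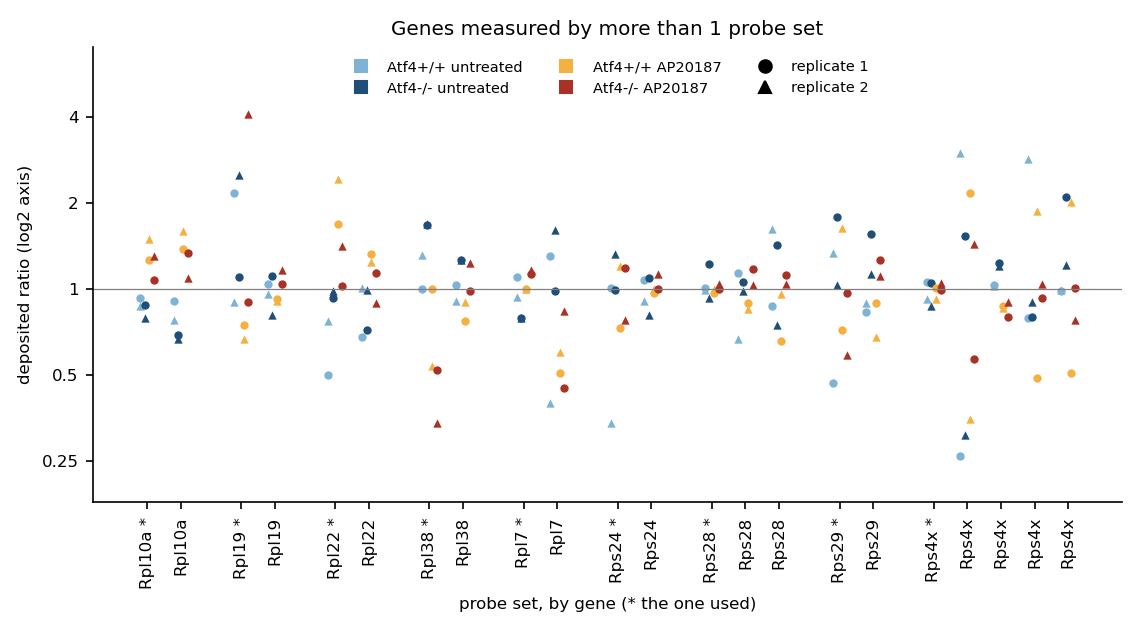
Deposited ratio (log2 axis) in the 8 arrays for every probe set of the 9 genes with more than 1, the one used marked by an asterisk. Both probe sets of Rpl10a separate treated from untreated arrays, those of Rpl38, Rpl22 and Rpl7 differ from each other, and the probe sets of Rps4x range from nearly flat to widely scattered.

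The rest of the large subunit was divided between steady and scattered genes. Rplp0, the base of the ribosomal stalk and a common reference gene, had ratios from 0.75 to 1.12 and an averaged change of 0.051 ± 0.18 (SE, limma adjusted p = 0.936), its lowest value being in untreated Atf4-/- replicate 2. Rpl37a, a small zinc-binding protein, read 1.11 and 0.85, 1.24 and 1.24, 0.98 and 1.02, and 0.97 and 0.93 in untreated Atf4+/+, untreated Atf4-/-, treated Atf4+/+ and treated Atf4-/- livers. Rpl7 read 1.1 and 0.94, 0.79 and 0.79, 1.0 and 1.0, and 1.13 and 1.16 in that order, so that both treated Atf4-/- arrays were above the rest and both untreated Atf4-/- arrays below. Its change in Atf4-/- was 0.48 ± 0.20 (SE, 2 against 2 arrays, unadjusted p = 0.0467, limma adjusted p = 0.667), but its other probe set had a change of -0.92 ± 0.54 (SE, limma adjusted p = 0.732). That probe set has a plain name but a row median of 0.72, below the 0.99 asked of the one used, which has an _s_at name. The paralog-like Rpl7l1 stayed between 0.96 and 1.07 in 7 arrays and was 0.7 in untreated Atf4-/- replicate 2.

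Rpl39, which lines the exit tunnel of the ribosome, read 0.46 and 0.98, 1.13 and 1.13, 0.93 and 1.51, and 0.86 and 1.02. Its low value was 1 untreated Atf4+/+ array, and without it the Atf4+/+ change of 0.73 ± 0.38 (SE, 2 against 2 arrays, limma adjusted p = 0.62) was 0.25. Rpl39l, the paralog best known from testis, read 1.81 and 1.54, 0.39 and 1.45, 0.38 and 0.55, and 1.77 and 0.27. The 2 arrays of either Atf4-/- group were far apart, and the change in Atf4+/+ was -1.66 ± 0.84 (SE, limma adjusted p = 0.612). Rpl19 read 2.17 and 0.9, 1.1 and 2.49, 0.75 and 0.67, and 0.9 and 4.08, the widest range of any member at 2.44 on the log2 scale. Its second probe set stayed between 0.81 and 1.16. Rpl32 (from 0.54 to 1.43) and Rpl35a (from 0.51 to 1.79), the latter a gene mutated in Diamond-Blackfan anaemia, also varied within groups as much as between them.

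In the small subunit no member reached an unadjusted p under 0.05 in the averaged comparison, against 11.3% of all probe sets in either direction. Of the 16 genes, 15 (93.8%, against 79.2% of all probe sets) had a log2 change of less than 0.5 in either direction. Rps3a1, near the exit of the mRNA, read 0.94 and 0.95, 1.01 and 0.87, 1.01 and 1.07, and 0.99 and 1.02. Rps4x had an equally narrow range in the probe set used (0.26 on the log2 scale, against 0.27 for Rps3a1), while its other 4 probe sets differed from it. One with an _r_at name ranged from 0.26 to 2.98 in ratio. One with a plain _at name read 1.03 and 1.02, 1.23 and 1.2, 0.87 and 0.86, and 0.8 and 0.9, with every treated array below every untreated one. Its averaged log2 change was -0.35 ± 0.14 (SE, unadjusted p = 0.0419, limma adjusted p = 0.431). Its row median of 0.96 was below 0.99, and its identifier also came after that of the one used. Rps27 stayed between 0.81 and 1.03. Its paralog Rps27l, induced by p53, read 0.73 and 0.76, 0.82 and 0.98, 0.51 and 0.7, and 1.76 and 0.87. Only treated Atf4-/- replicate 1 was above 1, but the row median was 0.79, so that 1 is not its middle. The probe set of Rps27l has an _r_at name. In treated livers Rps27l was higher in Atf4-/- by 0.94 ± 0.35 (SE, 2 against 2 arrays, unadjusted p = 0.0329, limma adjusted p = 0.88). Without that array the difference was 0.47. The count of members higher in this comparison ranged from 0 to 2 as single arrays were left out.

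Rps14, the gene of the myelodysplastic 5q- syndrome in people, read 0.95 and 1.35, 0.77 and 1.14, 0.24 and 1.06, and 0.22 and 1.16. Replicate 1 was low in both treated groups and replicate 2 was near 1, and the averaged change was -0.84 ± 0.56 (SE, limma adjusted p = 0.598). Rps19, the gene most often mutated in Diamond-Blackfan anaemia, read 0.89 and 1.55, 0.9 and 0.73, 0.85 and 1.13, and 1.1 and 1.27, with an averaged change of 0.13 ± 0.22 (SE, limma adjusted p = 0.853). Rps20 (0.98 and 0.59, 1.53 and 0.96, 1.03 and 1.42, and 0.55 and 1.02) was above 1 in both treated Atf4+/+ arrays, and its lowest value was in a treated Atf4-/- array. The difference of its effects was -1.23 ± 0.57 (SE, limma adjusted p = 0.931). Rps15 (1.79 and 1.19, 0.25 and 1.25, 1.61 and 0.75, and 0.52 and 0.76), Rps13 (from 0.81 to 2.02), Rps29 (from 0.47 to 1.78) and Rps24 (from 0.34 to 1.32) had replicates far apart in at least 1 group. The second probe set of Rps24, with an _r_at name, stayed between 0.81 and 1.13.

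The genotypes' effects were next set side by side. In Atf4+/+ livers the median change of the members with AP20187 was 0.037 (all probe sets -0.057), and 3 were higher at an unadjusted p under 0.05 (9.09%, against 4.78% of all) and 0 lower (against 4.31%). There 1 of 12422 probe sets passed the adjusted threshold (0.00805%). Both treated arrays lay above both untreated ones for 9 members (27.3%, against 16.7%) and below them for 4 (12.1%, against 21.3%). Without untreated Atf4+/+ replicate 2 the members' median was -0.02. In Atf4-/- livers the median was 0.091 (all probe sets -0.019), and 2 members were higher (6.06%, against 4.27%) and 1 lower (3.03%, against 3.16%), with 0 of 12422 probe sets past the adjusted threshold and 922 (7.42%) at an unadjusted p under 0.05. The arrays were apart upward for 5 members (15.2%, against 20.1%) and downward for 4 (12.1%, against 22.3%). Without untreated Atf4-/- replicate 2 the Atf4-/- median was -0.039, and without replicate 1 it was 0.19. The higher count there was 1 when any single array but treated Atf4-/- replicate 2 was left out. In the difference of the effects, 0 members were higher and 2, Rpl22 and Rpl38, were lower at an unadjusted p under 0.05 (6.06%, against 2.73% of all probe sets in that direction), and 0 members and 0 probe sets (0.0%) passed the adjusted one. The lower count was 0 without either untreated Atf4-/- array, with the mean of a gene's probe sets, with the probe set of smallest SD and with the described genotype. The higher count was 2 without treated Atf4-/- replicate 2. The difference for Rpl38 was -1.20 ± 0.47 (SE, limma adjusted p = 0.909), and 0.013 in the probe set of smallest spread within groups. A median SE of 0.459 for this difference limits what 2 arrays a group can show.

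**Figure D3:**
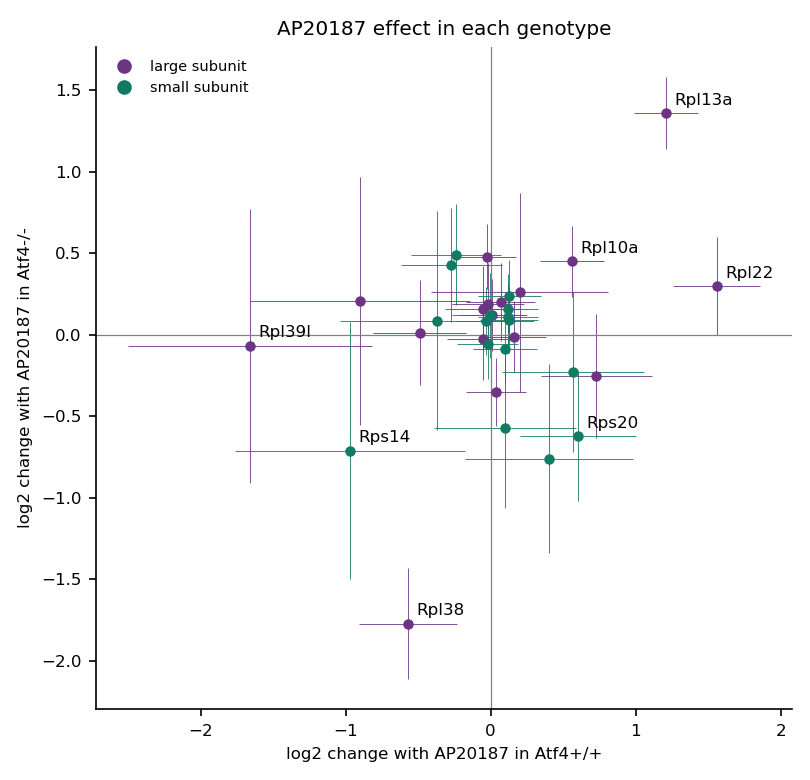
Log2 change with AP20187 in Atf4+/+ (horizontal axis) and Atf4-/- livers (vertical axis) for the 33 genes, with bars of 1 SE from the fit and colour for the subunit. Rpl13a lies at 1.21 and 1.36, Rpl22 at 1.56 on the Atf4+/+ axis, Rpl38 at -1.77 on the Atf4-/- axis, and most of the small subunit genes lie near the origin.

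Between the genotypes as labelled, untreated livers showed a member median of 0.0035 (all probe sets -0.0061), with 0 members higher (against 2.76% of all probe sets) and 0 lower (against 2.56%) at an unadjusted p under 0.05. The 2 arrays of one genotype lay above those of the other for 5 members higher in Atf4-/- (15.2%, against 15.5%) and 2 lower (6.06%, against 16.4%). In treated livers the median was 0.031 (all probe sets 0.044), with 1 member higher, Rps27l (3.03%, against 2.53%), and 0 lower (against 2.78%). Both Atf4-/- arrays lay above both Atf4+/+ ones for 4 members (12.1%, against 19.2%) and below them for 5 (15.2%, against 15.3%). Rpl22 had a log2 difference of -0.71 ± 0.30 (Atf4-/- minus Atf4+/+, SE, limma adjusted p = 0.951). For the untreated comparison the opposite Atf4 ratios of both replicate 2 arrays bear directly on the groups: without both, the untreated median was 0.15.

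Large and small subunit genes were compared within each array. The median of the large subunit genes minus that of the small was 0.11 and -0.061 on the log2 scale in untreated Atf4+/+, 0.074 and -0.043 in untreated Atf4-/-, 0.033 and -0.077 in treated Atf4+/+ and -0.0066 and 0.11 in treated Atf4-/- arrays. Each of the 4 groups held 1 value above and 1 below 0, so that no group stood on one side. The spread of this difference within groups was 0.094 (SD). The subunits' median changes were 0.074 (large) and 0.041 (small) averaged over genotypes, 0.0069 and 0.1 in Atf4+/+ and 0.16 and 0.086 in Atf4-/- livers. The gap between the subunits was thus below or about the spread within groups.

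**Figure D4:**
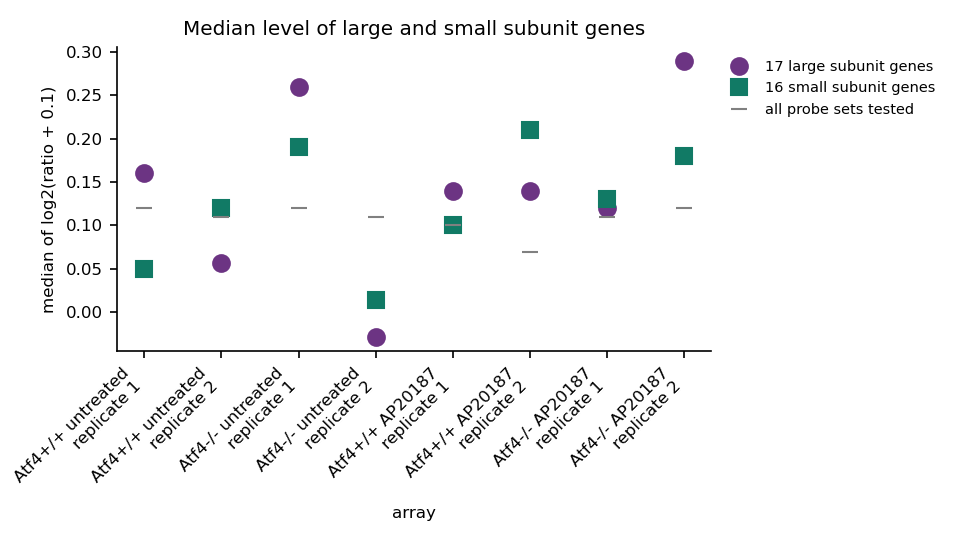
Median of log2(ratio + 0.1) over the 17 large subunit genes (circles) and the 16 small subunit genes (squares) in each of the 8 arrays, with the median of all probe sets as a dash. Both subunits are lowest in untreated Atf4-/- replicate 2 and neither separates treated from untreated arrays.

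Almost as many members were steady as were scattered. All 8 ratios lay between 0.7 and 1.3 for 15 of 33 genes (45.5%), 7 large and 8 small, as they did for 2558 of the 12422 probe sets (20.6%). The members' median range over the 8 arrays was 0.85 on the log2 scale, beside 1.12 over all probe sets. The steady genes were Rps4x, Rps3a1, Rps27, Rpl8, Rps28, Rps18, Rpl7a, Rps7, Rps10, Rpl37a, Rpl6, Rpl7, Rplp0, Rpl7l1 and Rps3. Of these 15, 13 were above 1 in untreated Atf4-/- replicate 1, with a median ratio of 1.07, and 13 were below 1 in untreated Atf4-/- replicate 2, with a median of 0.84. The arrays of this 1 group were thus the furthest apart, and the medians in the other 6 arrays lay from 0.96 to 1.06. Which genes were steady depended on the probe set used, and over all 46 ribosomal protein probe sets 19 (41.3%) were. Probe sets not used left the bounds for Rpl7 (from 0.4 to 1.61) and Rps28 (from 0.66 to 1.62 and from 0.67 to 1.17). Those of Rpl19 (from 0.81 to 1.16), Rps24 (from 0.81 to 1.13) and Rpl38 (from 0.77 to 1.26) kept within them. Of the mitochondrial ribosomal proteins, 28 of 61 (45.9%) were steady by the same bounds. Members read by probe sets with plain names had a median range of 0.62 (27 genes), those with suffixed names 1.24 (6 genes). No detection calls or signals were used here, and the part of weak signal in the scattered members was not tested.

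The 39 probe sets that name a ribosomal protein gene with other genes were more often steady and more often above 0 than the members. All 8 ratios lay between 0.7 and 1.3 for 27 of them (69.2%, against 45.5% of members and 20.6% of all probe sets). Their averaged change with AP20187 had a median of 0.13 (members 0.063, all probe sets -0.043). It was above 0 for 33 of 39, against 21 of 33 members and 5586 of all 12422 probe sets. The treated arrays lay above the untreated ones for 3 (7.69%, against 4.19% of all probe sets), and 1 was higher at an unadjusted p under 0.05 (2.56%, against 6.16%).

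Genes that build ribosomes were set beside the genes of their proteins. Of 39 listed ribosome biogenesis genes 36 were measured, and their averaged change with AP20187 had a median of 0.45. It was above 0 for 33 of them, against 5586 of all 12422 probe sets. None passed the adjusted threshold, 16 (44.4%) were higher at an unadjusted p under 0.05 against 6.16% of all probe sets, and 15 (41.7%, against 4.19%) had treated arrays above all untreated ones. Without both untreated replicate 2 arrays 12 of the 36 (33.3%, against 5.23%) were higher, with a median of 0.41. Gnl3, the nucleolar GTPase nucleostemin, had a log2 change of 1.41 ± 0.23 (SE, limma adjusted p = 0.147). Nop58 and Nop56, which are among the core proteins of the box C/D snoRNPs, had changes of 1.53 ± 0.26 and 1.76 ± 0.35 (SE, limma adjusted p = 0.166 and 0.218). The 3 genes below 0 were Mybbp1a (-0.26 ± 0.42), Nop10 (-0.092 ± 0.18) and Fbl (-0.083 ± 0.18, SE), the last also a box C/D protein. Npm1, which is nucleophosmin, and Ncl, which is nucleolin, had changes of 0.76 ± 0.18 and 0.68 ± 0.18 (SE, limma adjusted p = 0.261 and 0.303). The median log2 value of the list in treated arrays was 0.29 and 0.91 in Atf4+/+ and 0.26 and 0.28 in Atf4-/-, and in untreated arrays it lay between -0.13 and 0.014. The highest was treated Atf4+/+ replicate 2, which also had the lowest Actb 5′ to 3′ ratio. Without that array the averaged change of the list had a median of 0.39 (all probe sets -0.039), with 32 of 36 above 0. The median log2 value of the ribosomal protein genes lay from 0.11 to 0.21 in treated and from -0.014 to 0.21 in untreated arrays. The difference between the lists was not tested.

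**Figure D5:**
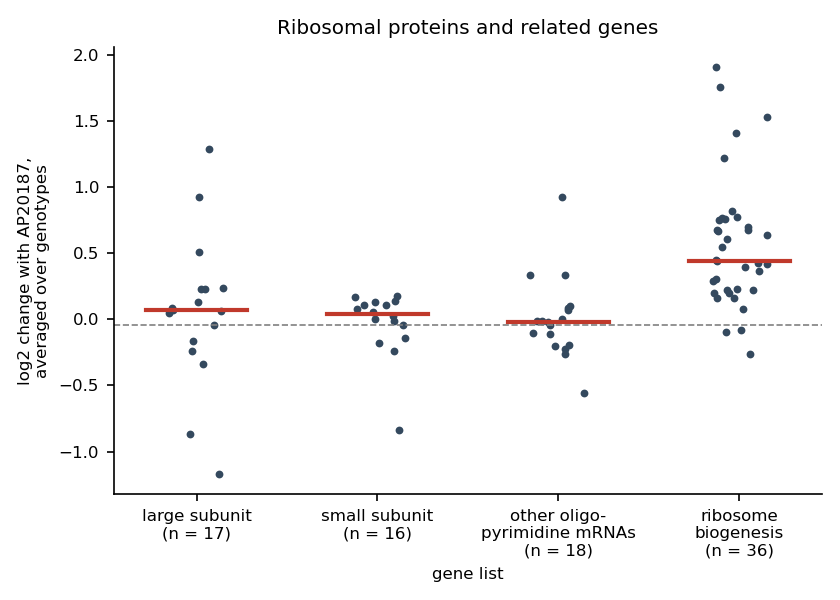
Log2 change with AP20187 averaged over genotypes, 1 point per gene, for large subunit, small subunit, other oligopyrimidine and ribosome biogenesis genes, with the median of each list in red and that of all probe sets dashed. The medians are 0.074, 0.041, -0.017 and 0.45, against -0.043 for all probe sets.

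Other mRNAs known for an oligopyrimidine tract, such as those of elongation factors, had a median of -0.017 over 18 measured of 21 listed. At an unadjusted p under 0.05, 2 of these were higher (11.1%, against 6.16%), Hnrnpa1 by 0.93 ± 0.27 and Pabpc1, the poly(A)-binding protein, by 0.34 ± 0.14 (SE). The count was 1 (5.56%) without any single array and 0 without both untreated replicate 2 arrays. Of the 61 mitochondrial ribosomal proteins, 2 were higher (3.28%, against 6.16%) and 5 lower (8.2%, against 5.15%) at an unadjusted p under 0.05 in the averaged comparison. Their median change was -0.17 in Atf4+/+ livers (all probe sets -0.057) and 0.1 in Atf4-/- livers (all probe sets -0.019). Leaving out 1 treated Atf4+/+ array gave -0.31 (without replicate 1) and -0.1 (without replicate 2) in Atf4+/+. In Atf4-/- the median was 0.022 and 0.027 without untreated Atf4-/- replicate 1 and 2, and 0.047 without treated Atf4-/- replicate 1.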

How the data were processed

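The members and gene lists were chosen with earlier results of these data known. Total RNA of liver was labelled as biotinylated cRNA, per the labels' protocols, and measured on Affymetrix MG-U74Av2 arrays. The authors' deposited table gives each value as a linear ratio, rounded to 0.01. The row median was at least 0.99 in 10714 of 12488 probe sets and lower in 1774 (14.2%). The steps of summarisation and scaling, and the divisor, were not given in the sources used here.

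After 66 controls were left out, 12422 probe sets were tested, of which 10833 had 1 gene, 396 several and 1193 none in the platform annotation, and 10817 were matched by gene identifier to RefSeq symbols. Column means after trimming 2% were 0.937 to 0.98. The furthest was 3.26% from the middle, within the planned 10%, and no rescaling was done. Untreated and treated groups came from source names and descriptions. Replicate numbers follow accession order. The fit, on log2(ratio + 0.1) of all 8 arrays with 4 group means, used limma 3.58.1 with eBayes under R 4.3.3 and statmod 1.5.0 (4 residual and 2.37 prior degrees of freedom). Adjusted p-values follow Benjamini and Hochberg across all 12422 probe sets. The pseudocount understates changes of low ratios. The median SE was 0.325 for 2 against 2 arrays and 0.23 for 4 against 4.

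Where a gene had several probe sets, those whose row median reached 0.99 came first, among these a plain _at name, and then the first identifier. Of the 33 used, 31 met the first condition, and Rps15 and Rps27l did not. No filter on low values was applied, so every member was tested. Named were the 4 members of smallest p per direction and comparison, the 5 of widest and 3 of narrowest range, listed reference members and paralog pairs. Others are named as examples. Fau was measured within the other oligopyrimidine list. Python 3.11.15, pandas 2.3.3 and matplotlib 3.10.9 were also used. The fit was tested on simulated data. Alternatives were other scalings, pseudocounts, filters, probe set rules, moderation, array weights, thresholds, groupings and leaving out each array. Leaving out both untreated replicate 2 arrays, leaving arrays out of the related lists, and describing the probe sets of several genes, were chosen after seeing the data.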

Additional observations from a re-analysis of the deposited data

How the results depend on the processing

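The count of members past the test was 0 under every alternative except a threshold of 0.1, where it was 1 in the averaged comparison (Rpl13a). With 2 arrays a group few changes of this size could pass the test, so that these zeros show no stability. Of the alternatives that keep all 8 arrays or drop both untreated replicate 2 arrays, 268 summary values moved by less than the spread within groups or kept their count, and 14 did not. The spread was 0.09 for the members' median and 0.094 for large minus small subunit (SD, log2). With the genotype of untreated Atf4-/- replicate 1 taken from its description, the members' median was 0.19 for the AP20187 effect in Atf4-/-, 0.23 for the difference of effects and -0.18 between untreated genotypes, and large minus small was 0.21 in the difference of effects. Without both untreated replicate 2 arrays, the median was -0.039 in Atf4-/-, -0.044 averaged, -0.13 for the difference of effects and 0.15 between untreated genotypes, and large minus small was -0.024 in Atf4-/- and -0.0069 for the difference of effects. With the mean over genes, large minus small was 0.024 for the effect in Atf4+/+ and 0.13 between treated genotypes, and with the probe set of smallest SD it was 0.012 in Atf4+/+.

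Leaving out 1 array at a time, the median ranged from -0.02 to 0.063 in Atf4+/+, where the low end came from untreated Atf4+/+ replicate 2. It ranged from -0.039 to 0.19 in Atf4-/-, from -0.035 to 0.14 averaged, from -0.13 to 0.22 for the difference of effects and from -0.11 to 0.14 between untreated genotypes, the extremes coming from the untreated Atf4-/- arrays. Large minus small ranged from -0.15 to 0.065 in Atf4+/+, from -0.024 to 0.15 in Atf4-/-, from -0.063 to 0.1 averaged, from 0.017 to 0.27 for the difference of effects and from -0.087 to 0.086 between untreated genotypes. Small medians of either sign are therefore not stable to the loss of 1 array.

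Among single genes 15 values took the opposite sign. Rpl7 was -0.22 in Atf4-/-, -0.2 averaged, -0.028 for the difference of effects and 0.19 between untreated genotypes with the mean of its probe sets, and -0.92, -0.64, -0.56 and 0.7 with plain probe sets only. With the probe set of smallest SD, Rpl38 was 0.013 for the difference of effects and 0.36 between treated genotypes, and Rps24 was -0.063 between untreated genotypes. Between untreated genotypes, Rps24 was -0.026 and Rps19 0.014 without both replicate 2 arrays, and Rps15 was 0.51 and Rpl39l 0.43 with the described genotype. These follow from the probe sets or arrays used. For the 4 members of smallest p per direction and comparison, no change took the opposite sign when 1 array was left out. These members were picked by p from the same arrays, so that their kept sign does not show stability. The other members were not tested in this way. No paired analysis was possible because the labels give no replicate numbers. Ratios carry no brightness, so that how far a member stood above background is unknown.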

Other observations

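In treated livers the ribosome biogenesis genes had lower values in Atf4-/- than in Atf4+/+ for 29 of 36, with a median difference of -0.43 on the log2 scale beside 0.044 over all probe sets. At an unadjusted p under 0.05, 5 of them were lower (13.9%, against 2.78% of all probe sets), and none passed a limma adjusted p under 0.05. Without treated Atf4+/+ replicate 2 the median was -0.14 and 1 was lower (2.78%, against 1.92%), so that the size of this difference rests on that array. Without the other treated Atf4+/+ array the median was -0.58 and 12 were lower (33.3%, against 4.48%). In the same comparison all 9 hepatocyte markers measured were higher in Atf4-/- (median 0.2), and so were 46 of 61 mitochondrial ribosomal proteins (median 0.16). Of all probe sets, 6812 of 12422 were higher. Past an unadjusted p under 0.05 were 0 markers and 1 mitochondrial gene (1.64%, against 5.31% of all probe sets in either direction). Without treated Atf4+/+ replicate 2 the mitochondrial median was 0.04, with 36 of 61 above 0, and without replicate 1 it was 0.3. The mean of the hepatocyte markers was 0.024 and -0.15 in treated Atf4+/+ and 0.26 and 0.22 in treated Atf4-/- arrays, and treated Atf4+/+ replicate 2, at -0.15, also had the lowest Actb 5′ to 3′ log2 ratio, -0.64. Their part in the difference was not tested. The ribosomal protein genes had a median of 0.031 in the same comparison.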
